A study of Homo sapiens with 6 samples.

Results

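MAP2K5, which encodes the kinase MEK5, and 8 genes of the ERK5 signalling pathway around it were measured in EJ/T24 bladder cancer cells transfected with FOXA1 and in cells given an empty plasmid. The members are every probe set of the HG-U133 Plus 2.0 array whose annotation gives exactly 1 gene symbol, where that symbol is MAP2K5, MAPK7, MAP3K2, MAP3K3, MEF2A, MEF2C, MEF2D, KLF2 or KLF4. All 9 genes were measured, with 32 of the 54613 probe sets tested. The array names 19775 genes in this way. The set was chosen by the log2 difference of 1 MAP2K5 probe set between the groups in these same arrays, and the other genes joined through their known place in the pathway. The MAP2K5 differences are therefore given as a description, with no test.

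EJ/T24 is an established human line of invasive bladder cancer, with low FOXA1, and the experiment asks what follows at the level of mRNA when FOXA1, a pioneer transcription factor of epithelia such as the urothelium, is raised. There were 3 arrays of FOXA1 transfected cells and 3 of cells with the empty plasmid (control), all grown in DMEM with 10% FCS and transfected as 90 mm dishes at 70% confluence with 24 μg of DNA. The labels give pUC19 as the empty plasmid and Lipofectamine 2000 as the reagent, whereas the methods describe pcDNA3 with and without FOXA1 and Lipofectamine LTX. The methods state triplicates but not that each array had its own culture, so p-values cover only how far these arrays scatter, and part of that scatter may be technical.

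As background, ERK5 (MAPK7) is a mitogen-activated protein kinase with a long C-terminal tail, and MEK5 is the kinase that activates it. MEK5 in turn is switched on by MEKK2 (MAP3K2) and MEKK3 (MAP3K3), which bind it through PB1 domains. Active ERK5 phosphorylates and drives the MEF2 transcription factors, and in endothelium this route induces KLF2 and KLF4. In epithelial cancers the pathway is mostly known for growth factor and stress signalling.

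Signals are MAS5 values on a linear scale in arbitrary units, and differences are log2 values, FOXA1 minus control, with the groups as labelled. The study's own list of changed genes gives MAP2K5, and DKK1 named further on, with the opposite sign, so each direction here holds only as far as the labels do. The signal of FOXA1 itself, which bears on the labels, is given next. A probe set is called bright where its mean signal was above the median of all probe sets (14.5) and dim otherwise, and 20% of all signals were under 3.5. Levels are not compared between probe sets, since each has its own response.

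The transfected gene itself was read by 1 bright probe set, 204667_at, with signals of 38.9, 34.8 and 31.9 in FOXA1 arrays, against 21.8, 24.4 and 21 in control arrays. The groups did not overlap, and the difference of 0.65 (SE 0.23) did not pass the threshold of 0.05 (adjusted p = 0.307, limma with Benjamini-Hochberg adjustment over all probe sets). At the dim probe set 237086_at FOXA1 averaged 5.3 ± 2.43 in FOXA1 arrays and 7.07 ± 1.07 in control arrays (SD, n = 3 each). The sources used here do not state whether either probe set reads the transfected construct.

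Array medians ran from 14.4 to 17.5 in FOXA1 arrays and from 12.3 to 16.1 in control arrays, and the median difference over all probe sets was 0.08. The 3 prime to 5 prime ratio of the ACTB array controls, a sign of RNA quality, was 2.37 ± 0.228 in FOXA1 arrays and 1.73 ± 0.188 in control arrays, without overlap, and that of GAPDH was 0.92 ± 0.0217 in FOXA1 arrays and 0.899 ± 0.00926 in control arrays (SD, n = 3 each). The part of RNA quality in the results below was not tested. FOXA1 replicate 3 correlated slightly better with the control arrays (mean r = 0.9319) than with its own group (mean r = 0.9297). The other FOXA1 arrays correlated almost equally with both, replicate 1 at 0.9281 with its own group and 0.9278 with control, replicate 2 at 0.9265 and 0.9261. Of 9 markers fixed for the labelled line, VIM (4070 ± 508 in FOXA1 arrays, 3840 ± 238 in control arrays) and KRT18 (2480 ± 103 in FOXA1 arrays, 2260 ± 165 in control arrays) were far above the median (SD, n = 3 each). The epithelial markers CDH1 (3.07 ± 2.15 in FOXA1 arrays, 1.33 ± 0.702 in control arrays) and EPCAM (4.83 ± 2.59 in FOXA1 arrays, 7 ± 1.32 in control arrays) were near the low end, and KRT19 was under 3.5 on all arrays. The groups did not overlap at CDH2, the cadherin of mesenchymal cells, with 362 ± 30.9 in FOXA1 arrays and 495 ± 36.4 in control arrays, a difference of -0.45 (SE 0.09, unadjusted p = 0.000526, adjusted p = 0.118, limma), nor at FN1, fibronectin, with 15.4 ± 8.22 in FOXA1 arrays and 24.6 ± 2.19 in control arrays, a difference of -0.88 (SE 0.46, adjusted p = 0.514, limma), nor at KRT7, with 27.4 ± 5.52 in FOXA1 arrays and 21 ± 2.7 in control arrays, a difference of 0.37 (SE 0.27, adjusted p = 0.65, limma). Over the 9 markers 5 differences were above 0 and 4 below. In all, 1 had FOXA1 arrays higher without overlap and 2 had them lower, beside 12.5% and 7.25% of all genes at their brightest probe set. The groups overlapped at the other markers, among them VIM (0.08), KRT18 (0.13) and KRT8 (0.11). Of other cell types, the summed signal of the 4 measured leukocyte markers was 35.4 to 39.5 in FOXA1 arrays and 22.7 to 30.9 in control arrays, with all 4 differences above 0, none of them bright and CD14 under 3.5 on all arrays. For 4 uroplakins of differentiated urothelium it was 34.5 to 46.5 in FOXA1 arrays and 16.2 to 37.9 in control arrays, and for 4 markers of neurons and glia 14.3 to 33 in FOXA1 arrays and 9.6 to 24.4 in control arrays. No marker of these 3 lists passed the threshold (limma), and 1, UPK1B, had an unadjusted p under 0.05. Their part in the results was not tested.

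At 211371_at, the probe set that chose the members, MAP2K5 had signals of 384.9, 243.1 and 187 in FOXA1 arrays, against 6.7, 4.3 and 14.2 in control arrays. All FOXA1 arrays were far above all control arrays, and the 3 control values lay under the median of all probe sets. The means were 272 ± 102 in FOXA1 arrays and 8.4 ± 5.16 in control arrays (SD, n = 3 each). The difference between the group means of the log2 signals was 5.13 (SE 0.39, 95% interval 4.27 to 5.99), a fold of 35 on that scale. The interval takes no account of the choice of this probe set from the same arrays and is not a test. With all 54613 probe sets ordered by signed difference, from the largest rise down, it ranked 2. With 1 array left out the difference lay between 4.73, without control replicate 2, and 5.6, without control replicate 3.

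The other 5 probe sets of MAP2K5 did not show a difference of that size. The annotation pairs 211370_s_at with the same transcript record as 211371_at, and this probe set read 92.9, 96.1 and 69 in FOXA1 arrays, against 71.2, 79.8 and 55.1 in control arrays. Its groups overlapped, because FOXA1 replicate 3 lay below 2 of the control arrays. The difference was 0.33 (SE 0.18, 95% interval -0.07 to 0.72).

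MAP2K5 at 204756_at, annotated to the RefSeq transcript of the gene, read 67.8, 60.7 and 78.7 in FOXA1 arrays, against 87.4, 64.3 and 41.1 in control arrays. The control arrays spanned a wider range than the FOXA1 arrays and enclosed it, and the difference was 0.16 (SE 0.24, 95% interval -0.37 to 0.69). At 210482_x_at, whose suffix marks probes that may also bind other transcripts, MAP2K5 read 54.5, 62.1 and 34.5 in FOXA1 arrays, against 51.9, 71.3 and 49.4 in control arrays. Here the difference was -0.22 (SE 0.24, 95% interval -0.74 to 0.31), and the groups overlapped. Both signs were unstable, since 204756_at gave -0.02 under median centring and -0.13 without control replicate 3, and 210482_x_at gave 0.04 without FOXA1 replicate 3.

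The remaining MAP2K5 probe sets, which share a cDNA record of their own, were dim. At 216765_at the signals were 10, 9.6 and 11.2 in FOXA1 arrays, against 7.8, 9.4 and 4.4 in control arrays, with no overlap and a difference of 0.58 (SE 0.52, 95% interval -0.56 to 1.72). At 216435_at they were 0.6, 3.2 and 1.5 in FOXA1 arrays, against 0.3, 3 and 2.3 in control arrays, all under 3.5, with a difference of 0.16 (SE 1.04) that turned to -0.02 under median centring and -0.03 under quantile normalization. The log2 difference was above 0 at 5 of 6 probe sets of MAP2K5, with a median of 0.24, but at 216435_at the mean signals ran the other way (1.77 ± 1.32 in FOXA1 arrays and 1.87 ± 1.4 in control arrays), and at 204756_at the sign depended on the processing. The sources used here do not state where on the transcript each probe set lies, so these readings cannot be assigned to exons or to splice forms. In bulk RNA, fewer cells with a transcript and less of it per cell cannot be told apart.

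**Figure D1:**
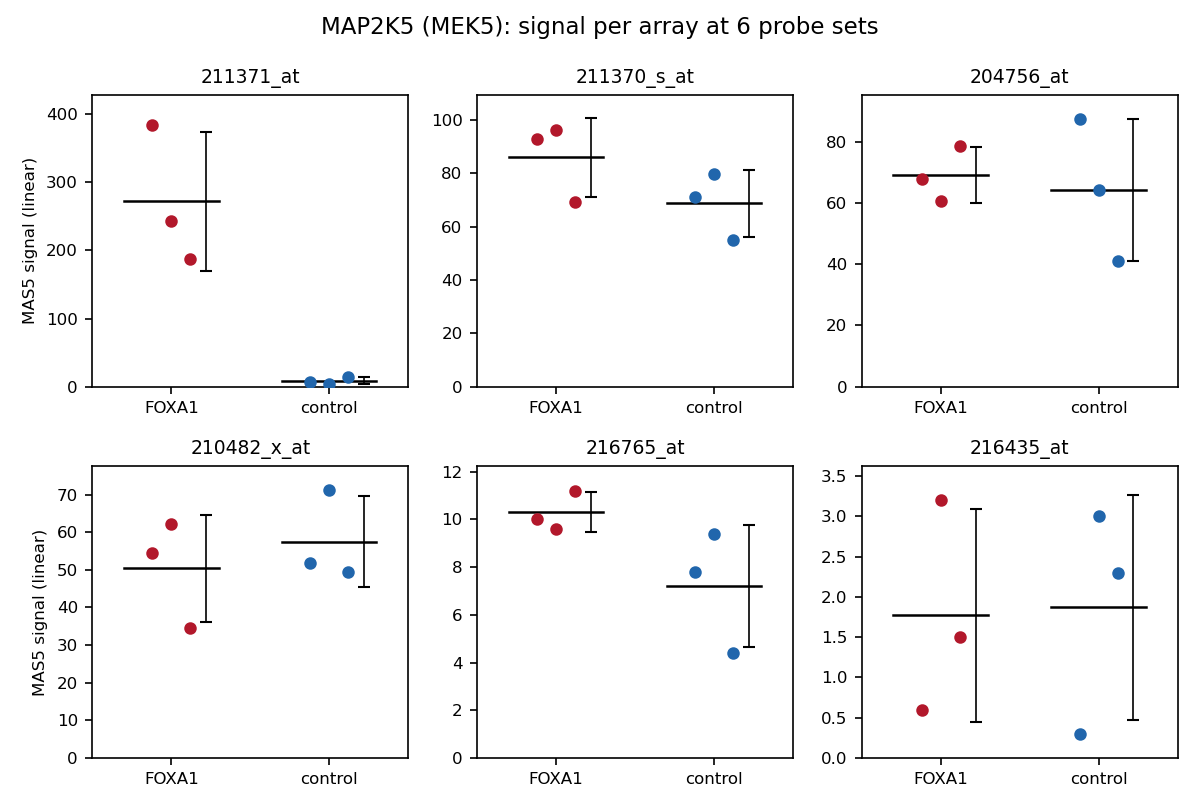
MAS5 signal (linear, each panel with its own axis from 0) of the 6 MAP2K5 probe sets on each FOXA1 array (red) and each control array (blue), with the group mean (line) and SD (bar, n = 3). Only at 211371_at, with 187 to 384.9 in FOXA1 arrays and 4.3 to 14.2 in control arrays, do the groups lie far apart.

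MAP2K5 lies on chromosome 15 (chr15:67542703-67807114, GRCh38.p14, plus strand). The 250 bases before the first of its RefSeq start sites are shown because this is the member with the widest difference, and because a factor that binds DNA was transfected. This stretch has 74.4% G and C, and neither of the forkhead letters searched on both strands, TGTTTAC and TGTTTGC, occurs in it or before any of the 19 RefSeq start sites of the member genes. Over all 35116 start sites of the table, 2.98% hold the first and 3.23% the second within the same length. The absence says only that these letters are not in this window.
MAP2K5, chr15:67542453-67542702, plus strand: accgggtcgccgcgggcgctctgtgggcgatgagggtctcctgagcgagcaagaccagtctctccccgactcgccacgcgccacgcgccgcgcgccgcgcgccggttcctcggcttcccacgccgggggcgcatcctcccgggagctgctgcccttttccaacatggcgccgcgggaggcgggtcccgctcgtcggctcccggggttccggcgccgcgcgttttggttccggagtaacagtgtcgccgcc

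ERK5 itself, the kinase that MEK5 phosphorylates, is encoded by MAPK7 (chr17:19377750-19383544, GRCh38.p14). At its brighter probe set, 35617_at, the signals were 63.8, 57.9 and 70.9 in FOXA1 arrays, against 43.4, 49.2 and 51.3 in control arrays. Every FOXA1 array was above every control array, with means of 64.2 ± 6.51 in FOXA1 arrays and 48 ± 4.09 in control arrays (SD, n = 3 each). The difference of 0.42 (SE 0.16, 95% interval 0.07 to 0.77) had an unadjusted p of 0.024 and did not pass after adjustment (adjusted p = 0.351, limma), and across the alternatives it stayed between 0.24 and 0.49 with adjusted p from 0.218 to 0.732. The second MAPK7 probe set, 207292_s_at, read 7.5, 26.1 and 18.7 in FOXA1 arrays, against 43.7, 6.7 and 40.4 in control arrays. It scattered widely within both groups, and its difference of -0.56 (SE 0.69, adjusted p = 0.805, limma) had the other sign.

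MEKK2, the product of MAP3K2 (chr2:127298668-127388465), was read by 7 probe sets, of which 2 had differences above 0 and 5 below. The brightest, 226979_at, had 282.3, 265.9 and 321 in FOXA1 arrays, against 313.9, 322.1 and 322.6 in control arrays. The control arrays lay close together, and 2 of the FOXA1 arrays were below all of them. The difference was -0.15 (SE 0.09, 95% interval -0.35 to 0.06, adjusted p = 0.602, limma). MAP3K2 at 235011_at pointed the other way without overlap, with 35.7, 32.7 and 36.4 in FOXA1 arrays, against 27.2, 32.4 and 29.7 in control arrays, a difference of 0.23 (SE 0.21, adjusted p = 0.722, limma).

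MEKK3, the product of MAP3K3 (chr17:63622417-63696305), had 2 bright probe sets, both with higher means in FOXA1 arrays. At 227131_at the signals were 105.5, 117.7 and 122 in FOXA1 arrays, against 112.4, 81.8 and 99.9 in control arrays, and the groups overlapped through control replicate 1. The difference was 0.24 (SE 0.14, 95% interval -0.07 to 0.55, adjusted p = 0.56, limma). At 203514_at MAP3K3 read 89.1, 70.6 and 75.8 in FOXA1 arrays, against 69.8, 55.9 and 60.1 in control arrays. The lowest FOXA1 array was just above the highest control array, and the difference of 0.34 (SE 0.15) had an unadjusted p of 0.0487 and an adjusted p of 0.436 (limma), from 0.294 to 0.811 across the alternatives. The third MAP3K3 probe set, 243505_at, was dim, with a difference of -0.85 (SE 0.86).

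The MEF2 factors are the best known nuclear substrates of ERK5. MEF2A (chr15:99565417-99716488) at its brightest probe set, 212535_at, had 215.2, 204.2 and 214.9 in FOXA1 arrays, against 202.4, 223.2 and 228.7 in control arrays. The FOXA1 arrays fell within the control range, and the difference was -0.04 (SE 0.09, 95% interval -0.25 to 0.16, adjusted p = 0.904, limma). The 4 probe sets of MEF2A differed by -0.22 to 0.05.

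MEF2C (chr5:88717117-88904105), best known from muscle and neurons, had at 209199_s_at 101.9, 79.5 and 97.2 in FOXA1 arrays, against 77.9, 86.2 and 87.9 in control arrays. A pair of FOXA1 arrays lay above all control arrays and the other lay among them, for a difference of 0.14 (SE 0.14, 95% interval -0.17 to 0.44, adjusted p = 0.756, limma) that became -0.04 under median centring. MEF2D (chr1:156463727-156500775), a broadly expressed member of the family, had at 225641_at 71.1, 77.8 and 81.9 in FOXA1 arrays, against 81, 74.6 and 68.4 in control arrays. The groups covered nearly the same range, and the difference of 0.04 (SE 0.14, 95% interval -0.26 to 0.35, adjusted p = 0.937, limma) changed sign under several alternatives, for example to -0.14 under median centring. The other probe sets of MEF2C (-0.14 and 0.38) and MEF2D (-0.23 and -0.16) also had intervals that included 0.

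KLF2 and KLF4 are zinc finger factors that ERK5 and MEF2 induce in endothelium, and KLF4 is also a factor of epithelial differentiation. KLF2 (chr19:16324826-16328685) at 219371_s_at had 207.8, 222.5 and 277.6 in FOXA1 arrays, against 274.5, 207.6 and 289.5 in control arrays. Both groups spanned almost the same values, with a difference of -0.12 (SE 0.14, 95% interval -0.44 to 0.2, adjusted p = 0.801, limma). The other KLF2 probe set, 226646_at, was under 3.5 on 4 of the 6 arrays.

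KLF4 (chr9:107484852-107489769) had the largest difference below 0 among bright member probe sets. At 221841_s_at its signals were 40.2, 28 and 23.3 in FOXA1 arrays, against 57.9, 45.3 and 35.2 in control arrays, with means of 30.5 ± 8.72 in FOXA1 arrays and 46.1 ± 11.4 in control arrays (SD, n = 3 each). The groups overlapped, since FOXA1 replicate 1 was above control replicate 3. The difference of -0.61 (SE 0.26, 95% interval -1.18 to -0.03) had an unadjusted p of 0.0413 and did not pass after adjustment (adjusted p = 0.416, limma), with -0.82 to -0.43 and adjusted p from 0.239 to 0.727 across the alternatives. The dim KLF4 probe set 220266_s_at gave 0.11 (SE 0.8).

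**Figure D2:**
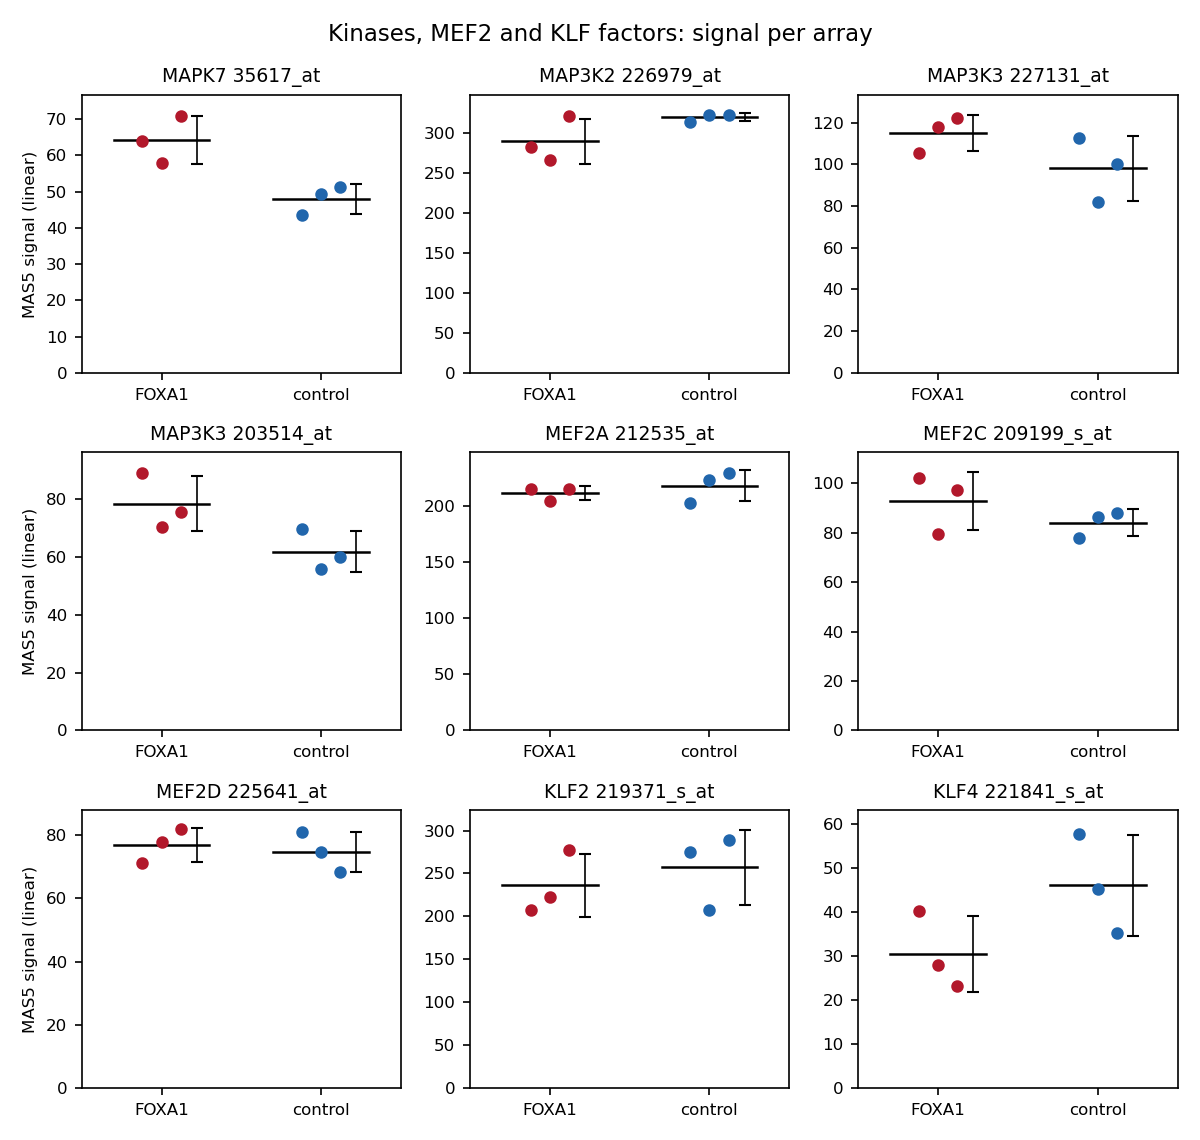
MAS5 signal (linear, each panel with its own axis from 0) on each FOXA1 array (red) and each control array (blue) for the brightest probe set of each member gene other than MAP2K5, and for a second MAP3K3 probe set, with the group mean (line) and SD (bar, n = 3). The groups do not overlap at MAPK7 35617_at (57.9 to 70.9 in FOXA1 arrays, 43.4 to 51.3 in control arrays) and MAP3K3 203514_at (70.6 to 89.1 in FOXA1 arrays, 55.9 to 69.8 in control arrays), and they overlap in the other panels.

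MEF2 factors are known to bind the KLF2 promoter in endothelium. The MEF2 consensus was searched on both strands within the 250 bases before each start. Of the 19 RefSeq start sites of the member genes, 3 have a match, beside 2.8% of all 35116 start sites (984). The 3 belong to KLF2, MEF2A and MEF2C, and they are shown because they place the letters that a MEF2 factor is known to bind before a target gene and before genes of the MEF2 family itself. For KLF2 the whole 250 bases are given, with 80% G and C and the match at -120 to -111 from the start. The MEF2A match lies at -23 to -14 from one of its starts, in 250 bases with 58.8% G and C. The MEF2C match lies at -175 to -166, in 250 bases with 30.8%. Several starts belong to the same gene and base content was not matched, so nothing is read from the share of 3 in 19. Capitals mark the match, which is a description of the sequence and not evidence of binding in these cells.
KLF2, chr19:16324576-16324825, plus strand: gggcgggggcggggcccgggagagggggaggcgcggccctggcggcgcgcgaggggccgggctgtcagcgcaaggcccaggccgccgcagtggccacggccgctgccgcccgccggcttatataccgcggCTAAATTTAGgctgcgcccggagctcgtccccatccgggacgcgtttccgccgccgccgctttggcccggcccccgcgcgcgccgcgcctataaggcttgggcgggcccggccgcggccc
MEF2A, chr15:99565941-99565983, plus strand: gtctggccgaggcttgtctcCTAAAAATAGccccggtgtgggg
MEF2C, chr5:88824490-88824539, minus strand: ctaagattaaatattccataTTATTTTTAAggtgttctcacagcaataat
The 3 genes that carry these letters had differences of -0.12 (KLF2), -0.04 (MEF2A) and 0.14 (MEF2C) at their brightest probe sets, and each interval included 0.

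Over all members, 17 of 32 probe sets had a difference above 0 and 15 below, with a median of 0.02, whereas 58.2% of all probe sets were above 0 with a median of 0.08. This count depended on scaling, with 13 of 32 above 0 under quantile normalization and 10 of 32 under median centring, which moved the median of all probe sets to 0 and -0.10. Without 211371_at, 25 of the other 31 probe sets differed by less than 0.5, and the 23 bright ones ran from -0.61 to 0.42 with a median of -0.07. The 8 dim ones ran from -0.85 to 0.79. Of these, 6 had at least 1 array under 3.5.

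MAP2K5 is left out of the counts by threshold, since 1 of its probe sets chose the list. Of all probe sets, 0.0385% were called higher (21) and 0.0201% lower (11). Outside MAP2K5, 0 of 26 passed (limma, adjusted p from 0.351 to 0.996), and this held under each of the 12 alternatives. At an unadjusted p under 0.05 there were 2 higher (MAPK7 and MAP3K3) and 1 lower (KLF4), beside 7.06% and 4.27% of all probe sets. Groups without overlap were counted over all 32 members, MAP2K5 included. They were seen at 5 of 32 (15.6%) with FOXA1 arrays higher and at 0 of 32 with FOXA1 arrays lower, beside 10.5% and 5.86% of all probe sets. Of those higher, 211371_at, which chose the list, and 216765_at belong to MAP2K5, so the share is raised by the choice of members. The others, from the 26 probe sets outside MAP2K5, were MAPK7 at 35617_at, MAP3K2 at 235011_at and MAP3K3 at 203514_at. Among the 24 bright members the count was 4 higher, again with 211371_at among them, and 0 lower, beside 12.9% and 8.95% of all bright probe sets.

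**Figure D3:**
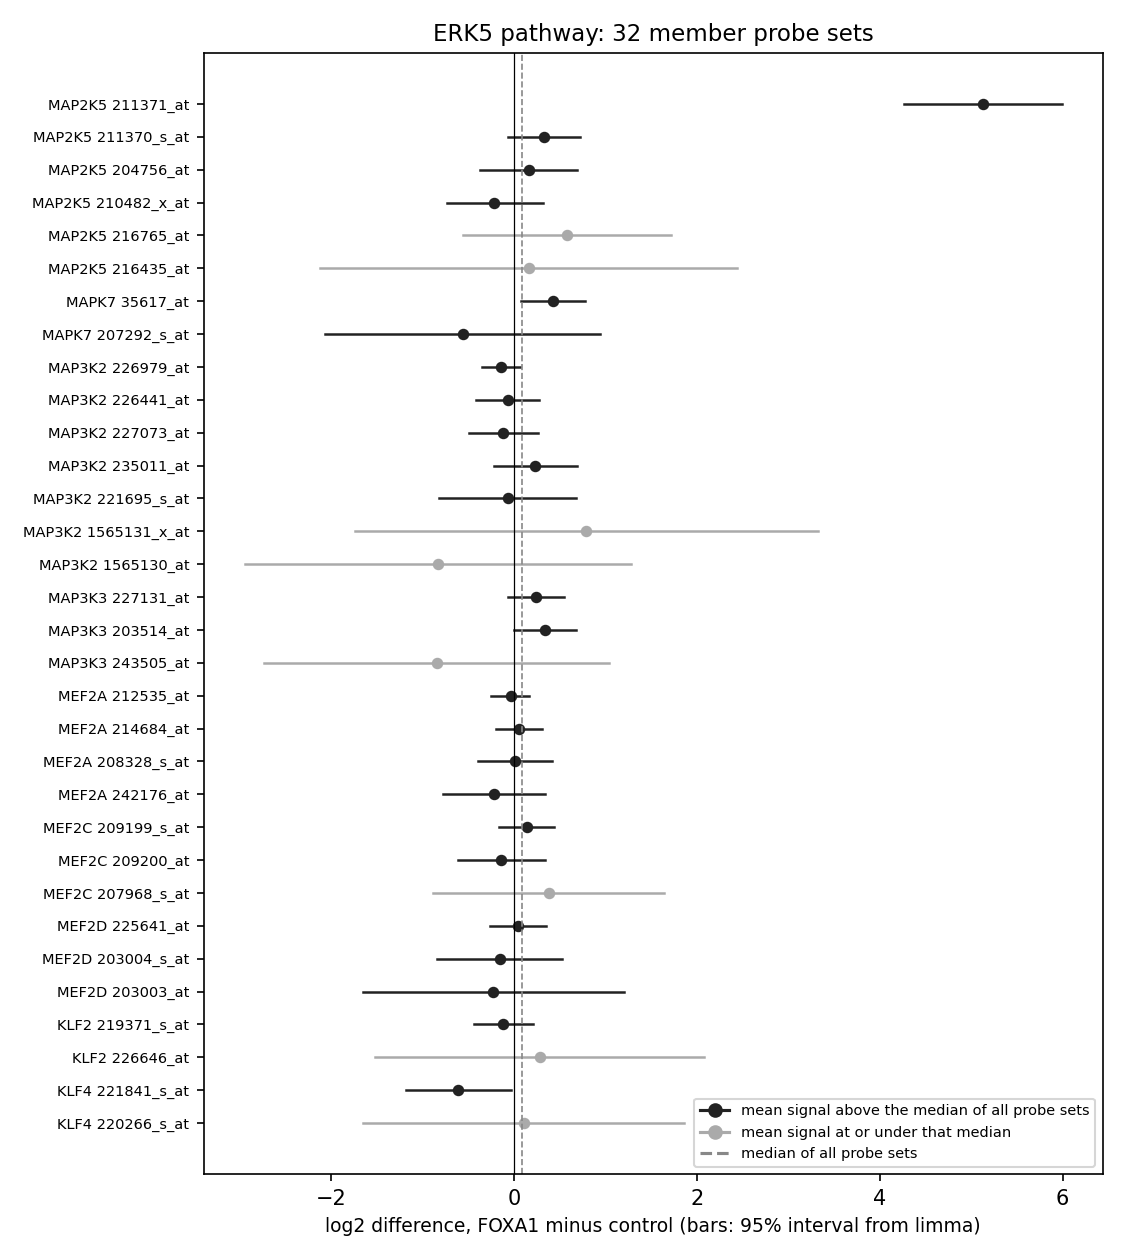
Log2 difference (FOXA1 minus control) with its 95% interval from limma for the 32 member probe sets, dark where the mean signal was above the median of all probe sets and grey where it was not. MAP2K5 211371_at stands at 5.13, the other dark points lie between -0.61 and 0.42, and the dashed line marks the median of all probe sets, 0.08. The interval at 211371_at takes no account of the choice of this probe set from the same arrays.

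Genes around the pathway were counted at their brightest probe set, against 19775 genes of the array with a median of 0.07, of which 12.5% had all FOXA1 arrays higher and 7.25% all FOXA1 arrays lower. None of the genes on the 6 lists below passed the threshold in either direction (limma), on lists whose smallest adjusted p over all their probe sets ran from 0.0941 to 0.613. At an unadjusted p under 0.05 (limma) there were 3 of 16 upstream regulators, 3 of 15 substrates or targets and 1 of 6 cofactors of MEF2. There were none among 5 targets of KLF2 and KLF4, 4 other MAP2K genes and 7 other MAPK genes. Over the 6 lists, 4 genes were higher and 3 lower in FOXA1 arrays, beside 9.07% higher and 5.49% lower of all genes. The 16 regulators that act above MEK5 and ERK5 had a median of -0.01, with 7 of them above 0 and 9 below, and ran from -0.44 to 0.9. Of the 16, 1 had FOXA1 arrays higher without overlap and 3 had them lower. PRKCZ, an atypical protein kinase C that binds MEK5, had 211.1, 199.7 and 173.1 in FOXA1 arrays, against 252.7, 286.2 and 253.9 in control arrays. All FOXA1 arrays were below all control arrays, with a difference of -0.44 (SE 0.11, adjusted p = 0.164, limma). HSP90AB1, a chaperone that holds ERK5 in the cytoplasm with CDC37, averaged 4340 ± 637 in FOXA1 arrays and 3420 ± 117 in control arrays (SD, n = 3 each), a difference of 0.33 (adjusted p = 0.263, limma) that passed only without FOXA1 replicate 3, at 0.46 (adjusted p = 0.0487). HSP90AA1, its close paralog, averaged 7580 ± 1120 in FOXA1 arrays and 6300 ± 383 in control arrays, a difference of 0.26 (adjusted p = 0.4, limma).

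Of 16 substrates and target genes of ERK5, 15 were measured, with a median of 0.03 and values from -0.45 to 0.92, of which 8 were above 0 and 7 below. FOSL1, which encodes the AP-1 subunit FRA1, had the largest difference of them, with 148.4, 193 and 171.7 in FOXA1 arrays, against 83.4, 74.5 and 117 in control arrays. Its groups did not overlap, and the difference of 0.92 (SE 0.17) missed the threshold (adjusted p = 0.0941, limma), whereas it passed when dim probe sets were left out (adjusted p = 0.039). RPS6KA3, the kinase RSK2, averaged 409 ± 8.55 in FOXA1 arrays and 481 ± 27.9 in control arrays, a difference of -0.23 (adjusted p = 0.304, limma). BAD, a promoter of cell death that is held back by phosphorylation, averaged 162 ± 8.29 in FOXA1 arrays and 137 ± 8.23 in control arrays, a difference of 0.24 (adjusted p = 0.422, limma). Neither RPS6KA3 nor BAD had overlapping groups, and in all 3 of the 15 genes had FOXA1 arrays higher without overlap and 1 had them lower. The immediate early genes JUN (-0.11) and MYC (-0.03) and the transcription factor gene CREB1 (-0.12) had differences close to 0.

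Of the targets of KLF2 and KLF4, 5 of 6 were measured, and their median was -0.04, with 2 above 0 and 3 below. CDKN1A, the cell cycle inhibitor p21 and the only bright one, averaged 239 ± 7.66 in FOXA1 arrays and 214 ± 5.9 in control arrays (SD, n = 3 each), a difference of 0.16 without overlap (adjusted p = 0.535, limma). The endothelial targets were dim, with NOS3 at 7.7 ± 2.4 in FOXA1 arrays and 4.37 ± 1.47 in control arrays, and THBD at 5.3 ± 4.03 in FOXA1 arrays and 8.1 ± 4.47 in control arrays. Of the 6 endothelial markers, 5 were dim, among them CDH5, the cadherin of endothelial junctions, at 2.2 to 5.3 in FOXA1 arrays and 1.4 to 5.4 in control arrays. The bright one, PECAM1, an adhesion molecule that blood cells also carry, had 42.8, 54.9 and 52 in FOXA1 arrays, against 30.5, 35.8 and 42.2 in control arrays, without overlap and with a difference of 0.47 (SE 0.2, unadjusted p = 0.0378, adjusted p = 0.406, limma). The summed signal of the 6 endothelial markers was 60.3 to 86.2 in FOXA1 arrays and 59.8 to 71.1 in control arrays, with PECAM1 the largest contributor on each array and 2 genes above 0 and 4 below, and that of the 5 muscle markers, a tissue where MEF2C is prominent, was 26.7 to 44.9 in FOXA1 arrays and 28.5 to 47 in control arrays.

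The median of the 6 cofactors of MEF2 was -0.10, with 2 above 0 and 4 below. HDAC9, a class IIa deacetylase that represses MEF2, had 91.3, 90.7 and 92.4 in FOXA1 arrays, against 112.5, 114.9 and 115.5 in control arrays. Both groups were tight and apart, with a difference of -0.32 (SE 0.11, adjusted p = 0.303, limma). EP300, an acetyltransferase that MEF2 recruits, differed by 0.24 (adjusted p = 0.593, limma) and the deacetylase HDAC5 by -0.23 (adjusted p = 0.718, limma), both with overlapping groups.

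For the parallel kinase cascades, 4 of 6 other MAP2K genes and 7 of 9 other MAPK genes were measured. The 4 MAP2K genes were all above 0, with a median of 0.20 and a range of 0.07 to 0.65. MAP2K1, the MEK1 kinase of the ERK1/2 cascade, averaged 430 ± 10.4 in FOXA1 arrays and 410 ± 12.2 in control arrays, and its partner MAP2K2 averaged 246 ± 29.7 in FOXA1 arrays and 218 ± 18.4 in control arrays (SD, n = 3 each). MAP2K4, a kinase of the JNK cascade, averaged 161 ± 39.8 in FOXA1 arrays and 137 ± 30.1 in control arrays. None of these had an adjusted p under 0.613 (limma), and the SD ranges of MAP2K2 and MAP2K4 overlapped. Of the MAP2K genes, the groups were apart only at MAP2K1. The 7 MAPK genes had a median of -0.08, and their groups overlapped in each. MAPK11, a p38 kinase, had the lowest of these differences, -0.73, with 25.5 ± 12.8 in FOXA1 arrays and 38.3 ± 1.93 in control arrays (adjusted p = 0.48, limma).

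**Figure D4:**
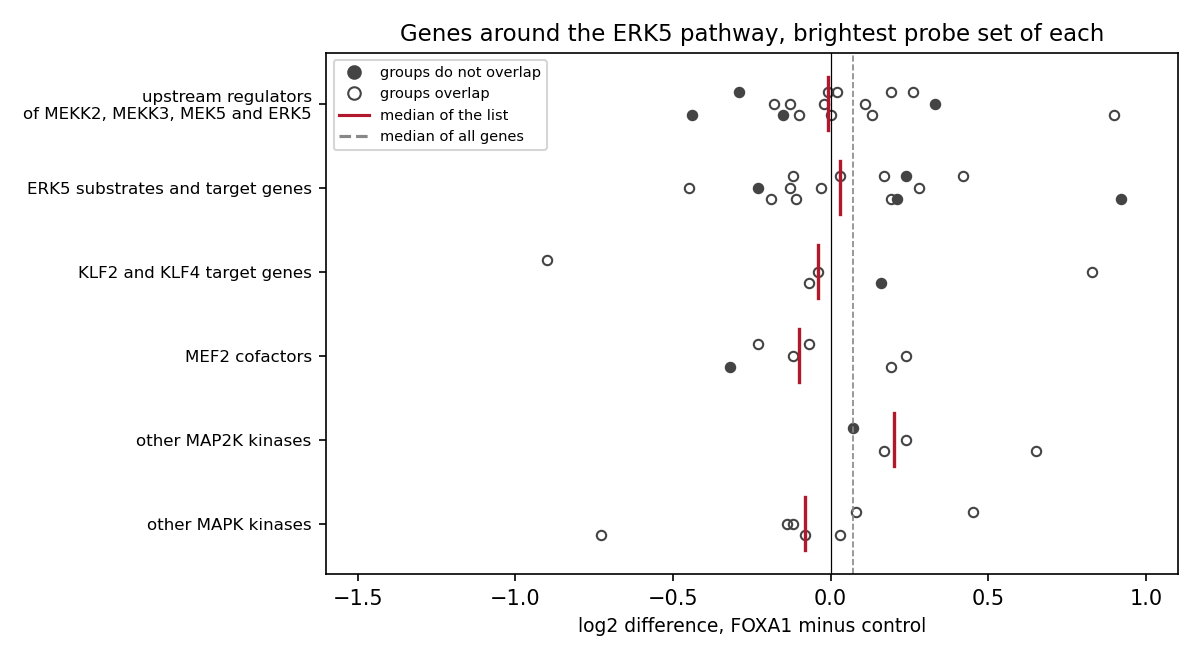
Log2 difference (FOXA1 minus control) of the genes on 6 lists around the ERK5 pathway, each at its brightest probe set, filled where the 3 FOXA1 arrays and the 3 control arrays do not overlap. Red lines mark the median of each list, from -0.10 for MEF2 cofactors to 0.20 for other MAP2K kinases, and the dashed line marks the median of all genes, 0.07.

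The genes whose pattern was most like that of MAP2K5 at 211371_at were found by Pearson's r of log2 signals over the 6 arrays, among 22646 bright probe sets with 1 symbol. All 6 points come from the same pair of groups, so that r largely follows the gap between them, and it is given as a description. ERCC2, a helicase of nucleotide excision repair, came first (r = 0.998), with 132.9, 125.7 and 125.4 in FOXA1 arrays, against 87.9, 83.5 and 92.7 in control arrays. NAB2, a corepressor of EGR factors, followed (r = 0.997), with 56, 52.6 and 49.7 in FOXA1 arrays, against 20.6, 17.5 and 26.1 in control arrays. The groups did not overlap in these or in the genes named next, which a search for this pattern favours. MRPL2, a mitochondrial ribosomal protein (r = 0.997), MRTFA, a coactivator of serum response factor (r = 0.996), and DKK1, a secreted Wnt inhibitor (r = 0.995), completed the first 5. Their differences were 0.54 for ERCC2, 1.32 for NAB2, 0.57 for MRPL2, 0.36 for MRTFA and 0.85 for DKK1, all smaller than the 5.13 for MAP2K5.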

How the data were processed

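Expression was measured on 6 HG-U133 Plus 2.0 arrays, 3 for each group, with groups and replicate numbers taken from the sample labels. The authors deposited MAS5 signals, which are linear intensity values, 1 for each probe set on each array, made in Affymetrix software. The methods describe RMA log2 conversion and SAM, which these linear values do not hold, so SAM was not run. Of 54675 probe sets, 62 array controls were left out. The platform annotation gives 1 symbol to 41091 of the rest, several to 1801 and none to 11721, and all 9 member genes matched RefSeq by Entrez number. Signals at 0 (25 values) were set to 0.1, a value chosen after seeing the data, and converted to log2. The 54613 remaining probe sets were fitted in limma 3.58.1 (R 4.3.3) by lmFit and eBayes, with a trend on intensity, and two-sided p-values were adjusted over all of them by Benjamini-Hochberg at a threshold of 0.05. The script was tested on simulated data. An exact permutation test of 3 against 3 arrays cannot go below p = 0.1 and was not used. Depth does not apply to arrays, and their number limits the precision.

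The members and gene lists were chosen with earlier results of these data known. All MAP2K5 probe sets are given by array, as are the brightest probe set of each other member and those with an unadjusted p under 0.05 and no overlap of the groups. A few more, such as MAPK7 at 207292_s_at and MAP3K2 at 235011_at, were added after their values were seen. Of each list, up to 3 genes with the smallest p are named, with JUN, MYC, CREB1 and the markers named beside them. The alternatives were limma without the trend, quantile normalization, median centring, a floor at the 20th percentile (3.5), leaving out dim probe sets, a replicate block, and leaving out each array. Promoter sequences are from RefSeq (GRCh38.p14). Probe and protein sequences, CpG methylation arrays and tumor cohorts were not analysed here.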

Additional observations from a re-analysis of the deposited data

How the results depend on the processing

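MAP2K5 at 211371_at stayed between 4.73 and 5.6 on the log2 scale with each array left out, and it was 5.01 under quantile normalization and 4.95 under median centring. Without the intensity trend and with the floor at the 20th percentile the difference was 5.13, the same as before, and it could not have changed. The trend enters only the variance, and all signals of this probe set lay above the floor. These 2 settings therefore say nothing on stability. The values are given as a description with no test. None of the 9 other probe sets given with their ranges passed the threshold under the alternatives (smallest adjusted p = 0.218, limma). Their differences could not change without the trend, with the floor, with the replicate block or with dim probe sets left out. All 9 were bright and had no array under the floor. Values from those settings kept their direction by construction. They are counted in the 103 of 108 values under alternatives that kept their direction, so this count overstates stability. The exceptions were MEF2C at 209199_s_at, with -0.04 under median centring, and MEF2D at 225641_at, with 0 under quantile normalization, -0.14 under median centring, and from -0.02 to 0.10 with each array left out (0 without FOXA1 replicate 3 and -0.02 without control replicate 3). The median of the member probe sets moved to -0.16 under median centring, and ran from -0.02 to 0.08 with each array left out.

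Over all probe sets, 21 were called higher and 11 lower. These counts were 1 and 0 without the trend, 5 and 2 under median centring, and 97 and 77 with dim probe sets left out, where fewer were tested. With each array left out they ran from 4 to 63 higher and from 0 to 13 lower, with 4 and 6 without FOXA1 replicate 1, 5 and 1 without FOXA1 replicate 2, 63 and 13 without FOXA1 replicate 3, 8 and 2 without control replicate 1, 4 and 1 without control replicate 2, and 4 and 0 without control replicate 3. With the replicate block they were 40 and 45. Deviations from the group mean were almost uncorrelated between arrays of the same number (r = 0.002, 0.038 and 0.011). Whether the arrays were handled in pairs cannot be told from this. The block called no member outside MAP2K5. On the pathway lists 1 gene, HSP90AB1, was called without FOXA1 replicate 3, and 1, FOSL1, with dim probe sets left out. Of the 32 member probe sets 8 were dim.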
